A study of Mus musculus with 5 samples.

Results

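The genes that carry glucose into the cell and break it down to lactate were followed across 5 mouse cell cultures, each measured on 1 Affymetrix expression array. The set was chosen by gene name: Slc2a1, Hk1, Hk2, Pfkl, Aldoa, Tpi1, Pgk1, Eno1, Pkm and Ldha, with every probe set annotated to 1 of these symbols and maker's controls left out. Of the 10 symbols, 9 were measured, through 12 probe sets, among 8251 genes with a symbol of their own in the table. Eno1 was not analysed here. A probe set of Hk2 stayed under the filter on low values on every array, with 1.67 to 4.38 units, which left 11 probe sets for the 9 genes. Where a gene had a pair of probe sets, the one with the higher mean stands for the gene and the other is called its second probe set.

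The cultures were A20, labelled as a memory B cell line (1 array), and 4 lines made from AxJ, a plasma cell line; plasma cells are the B lineage cells that secrete antibody. AxJ carried a stable transfection for the RNA-binding protein hnRNP-F (2 arrays, subclones B5 and D6), for its relative hnRNP-H (1 array) or with empty vector (1 array). The hnRNP-H and empty vector lines together are called the AxJ controls. All 5 cultures were kept in log phase without treatment, the AxJ lines with the drug G418 in the medium and A20 without it, so G418 and cell line cannot be told apart in A20. The submitters picked transfected clones by the protein level on western blots, so each transfected array is 1 selected clone. Each array reads bulk RNA of a culture, so a level per cell and a share of expressing cells cannot be told apart.

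Glycolysis splits glucose into pyruvate in a chain of cytosolic reactions and yields ATP and NADH. Slc2a1 encodes the glucose transporter GLUT1, the hexokinases Hk1 and Hk2 trap glucose as its phosphate, and phosphofructokinase commits it to breakdown. Activated and dividing lymphocytes are known to take up much glucose and to release part of it as lactate, and the transcription factors Myc and Hif1a are known to bind and activate many of these genes.

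Promoters of 4 members are shown because their letters differ in motifs of those factors while their levels parted across the cultures: Tpi1 and Ldha, whose levels in both hnRNP-F clones lay above both AxJ controls, Slc2a1, which spread most, and Pgk1, which was lowest in A20. The windows come from RefSeq (GRCm38.p6), run from 250 bases before the gene's start to 50 after it, and are the most upstream window where the table held several. Capitals mark ACGTG on either strand, a form of the core of the hypoxia response element. This form also lies inside the E-box CACGTG that Myc binds with Max. Other forms of the core, such as GCGTG, were not searched or marked.

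Tpi1 (chr6:124814109-124814408, minus strand): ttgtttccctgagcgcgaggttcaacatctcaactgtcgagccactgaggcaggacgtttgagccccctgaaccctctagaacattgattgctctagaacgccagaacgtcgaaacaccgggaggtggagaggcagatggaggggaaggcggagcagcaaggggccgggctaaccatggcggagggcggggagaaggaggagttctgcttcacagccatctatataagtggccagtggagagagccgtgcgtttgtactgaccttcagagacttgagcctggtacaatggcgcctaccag

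Ldha (chr7:46845554-46845853, plus strand): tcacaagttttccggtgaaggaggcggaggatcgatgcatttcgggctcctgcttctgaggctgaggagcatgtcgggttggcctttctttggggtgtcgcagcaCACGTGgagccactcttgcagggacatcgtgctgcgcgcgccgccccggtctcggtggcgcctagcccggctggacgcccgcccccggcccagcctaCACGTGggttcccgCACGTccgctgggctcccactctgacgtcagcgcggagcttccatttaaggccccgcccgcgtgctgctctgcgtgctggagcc

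Slc2a1 (chr4:119108495-119108794, plus strand): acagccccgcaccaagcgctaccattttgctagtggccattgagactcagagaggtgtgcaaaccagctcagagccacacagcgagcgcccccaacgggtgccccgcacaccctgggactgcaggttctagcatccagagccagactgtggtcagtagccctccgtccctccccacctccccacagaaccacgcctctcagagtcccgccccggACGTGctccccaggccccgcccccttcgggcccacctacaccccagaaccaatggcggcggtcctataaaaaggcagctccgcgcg

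Pgk1 (chrX:106186850-106187149, plus strand): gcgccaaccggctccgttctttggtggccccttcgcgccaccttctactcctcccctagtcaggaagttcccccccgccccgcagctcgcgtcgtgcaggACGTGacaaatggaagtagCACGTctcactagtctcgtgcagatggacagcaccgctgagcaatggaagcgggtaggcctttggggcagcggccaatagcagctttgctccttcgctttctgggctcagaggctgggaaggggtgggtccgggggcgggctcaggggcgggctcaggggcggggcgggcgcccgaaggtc

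The Ldha window held CACGTG at 145 and at 48 bases before the start and 1 further match of the shorter motif at 34 bases. Of 32851 windows of the same length, 7.15% held CACGTG and 0.594% held it at least 2 times. The Slc2a1 window held ACGTG at 36 bases before the start, and the Pgk1 window held a match at 150 and at 131 bases. The shorter motif, searched on both strands, was present in 19.6% of all windows. No match fell in the Tpi1 window. All 10 members had a window, and among their most upstream windows 1 held CACGTG and 4 held ACGTG on either strand. These 4 were Ldha, Slc2a1, Pgk1 and Hk2, whose window is not shown. Pfkl also lay above both controls in both clones, and Hk1 was also lowest in A20. Neither of their most upstream windows held a match. The windows shown were picked on motifs and levels together, and a link between the 2 was not tested.

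The labelled cell types were checked on marker genes. Of 13 measured B cell markers, 8 rose in A20 and none fell, among them Spib by 5.99 and Ms4a1, which encodes CD20, by 4.82 on the log2 scale. Of 6 plasma cell markers 3 fell, with Prdm1 (Blimp-1) at -3.71 (limma adjusted p = 0.00369). The call of Prdm1 held in all 12 alternatives run, while Irf4 lost its call in 6 and Jchain in 2. Summed over the list, B cell markers read 12091 units in A20, 3137 in B5, 4077 in D6, 3794 in hnRNP-H and 2077 in empty vector, and plasma cell markers read 2577, 5965, 6619, 8288 and 7117 in the same cultures. Markers of other cell types were not all under the filter on low values. That filter is the 40th percentile of all values, so most probe sets on every array exceed it. A level above it does not by itself show expression. Of 7 myeloid markers 4 to 5 lay above the filter on each array (summed level 242 to 496), of 2 T cell markers 1 to 2 (65.1 to 142), of 2 erythroid markers 1 to 2 (77.1 to 133) and of 5 stromal markers 2 to 4 (337 to 615). None of these genes was called in either comparison, and their part in the results was not tested. Signal at the 5' end of Gapdh over that at its 3' end, from the maker's controls, reflects how intact the RNA or its labelled copy is, and was 0.384 in A20, 0.181 in B5, 0.683 in D6, 0.866 in hnRNP-H and 0.212 in empty vector.

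A20 against the AxJ controls asked how a B cell line differs from plasma cell lines. Across this comparison 2.90% of 9107 probe sets rose and 2.99% fell past an adjusted p of 0.05. Of the 9 glycolysis genes none was called, in either direction, by limma (smallest adjusted p = 0.267). None had an unadjusted p under 0.05, against 1762 of the 9107 probe sets. The median log2 difference of the 9 genes was 0.08, against -0.03 over all 6638 genes, with 5 genes above 0 and 4 below, and was -0.26 without empty vector and 0.29 without hnRNP-H. Differences here are of log2(intensity + 6.55), and those of single members ran from -0.76 to 0.72. With A20 on 1 array, its side has no replicate check.

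The second comparison set the 2 hnRNP-F clones against the AxJ controls. By limma 0.0110% of probe sets, that is 1 probe set, rose past the threshold and 0% fell, and no glycolysis gene passed (smallest adjusted p = 0.790). Of 9107 probe sets 527 had an unadjusted limma p under 0.05. With 1 probe set per gene, 394 of 6638 genes did, among them 2 of the 9, Tpi1 and Pfkl. The median of the 9 genes was 0.30, against 0.01 over all genes, with 7 above 0. Both clones lay above both controls for Pfkl, Tpi1 and Ldha, 3 of 9 genes, where 18.2% of all probe sets did. They lay below both controls for 1 of 9, Hk2, against 19.4% of all probe sets. Single arrays decided these values: leaving out empty vector gave a median of 0.070, hnRNP-H 0.53, B5 0.61 and D6 0.17. The clones lay above the controls for 6 genes without hnRNP-H, where 37.9% of all probe sets did, and for 7 without B5, where 31.0% did. They lay below for 3 genes without D6, where 33.3% of all probe sets did.

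**Figure D1:**
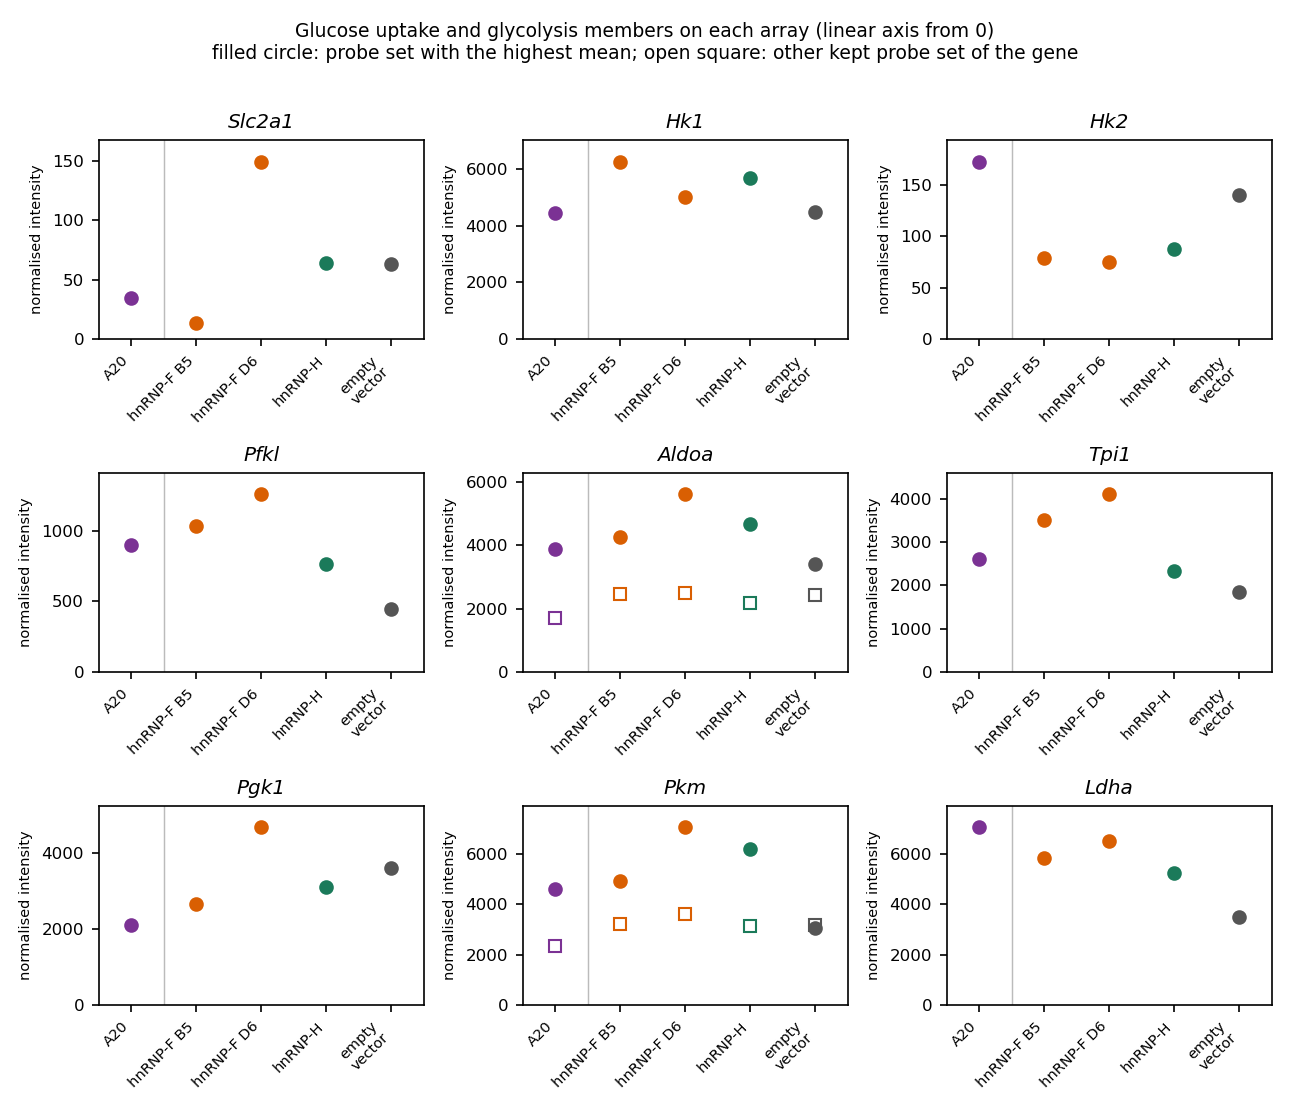
Normalised intensity (linear axis from 0) of the 9 measured glycolysis genes on each of the 5 arrays, 1 point per array and probe set, with A20 left of the AxJ lines. Filled circles are the probe set that stands for the gene and open squares a second one. Tpi1, Pfkl and Ldha sit higher in both hnRNP-F clones than in hnRNP-H and empty vector. Slc2a1 runs from 13.2 in B5, under the filter on low values (21.8), to 149 in D6.

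Glucose entry was read from Slc2a1. It read 34.7 in A20, 13.2 in B5, 149 in D6, 64.1 in hnRNP-H and 62.8 in empty vector. The B5 value lay under the filter on low values (21.8). The controls were nearly alike, while the hnRNP-F clones stood at opposite ends of all 5 arrays, so no difference for the pair of clones could be read. The log2 difference was -0.76 in A20 (SE 0.99, limma adjusted p = 0.751) and -0.34 in the hnRNP-F clones (SE 0.81, adjusted p = 0.948). The second of these was 1.15 without B5 and -1.82 without D6.

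The hexokinases phosphorylate glucose so that it stays in the cell. Hk1, the widely expressed form, read 4455 in A20, 6280 in B5, 5023 in D6, 5691 in hnRNP-H and 4499 in empty vector. A20 lay below all 4 AxJ lines, though close to empty vector. Its difference was -0.18 in A20 (95% interval -0.87 to 0.50) and 0.15 in the hnRNP-F clones (-0.41 to 0.71) on the log2 scale, and neither was called. Leaving out 1 control gave A20 a difference of -0.35 (without empty vector) or -0.014 (without hnRNP-H), and the authors' scaling gave -0.41. Hk2, the form known to be induced in growing cells, read 172 in A20, 79.0 in B5, 75.1 in D6, 87.9 in hnRNP-H and 140 in empty vector. A20 was the highest and both clones the lowest of the arrays. The difference was 0.61 in A20 (SE 0.42, limma adjusted p = 0.510) and -0.49 in the clones (SE 0.34, adjusted p = 0.798), and for the clones it was -0.18 without empty vector and -0.81 without hnRNP-H. In A20 it was 0.92 without empty vector and 0.29 without hnRNP-H.

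Pfkl, the liver-type subunit of phosphofructokinase, which catalyses the committed step, read 901 in A20, 1039 in B5, 1260 in D6, 766 in hnRNP-H and 450 in empty vector. Empty vector was far below the other 4 cultures, and the clones lay above both controls without overlap. The clones differed from the controls by 0.95 on the log2 scale (SE 0.31, 95% interval 0.25 to 1.66), with an unadjusted p of 0.0136 and a limma adjusted p of 0.790. Between arrays of like Gapdh ratio the log2 difference was 1.20 for B5 minus empty vector and 0.71 for D6 minus hnRNP-H, and without empty vector the clones differed from hnRNP-H by 0.57. A20 differed by 0.61 (SE 0.38, adjusted p = 0.444), by 0.13 when set against all 4 AxJ arrays as 1 group, by 0.23 without empty vector and by 0.99 without hnRNP-H.

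Aldoa encodes the aldolase that splits the 6-carbon sugar phosphate, and both of its probe sets carry the maker's mark for sets that can also detect related sequences. The main one read 3883 in A20, 4272 in B5, 5599 in D6, 4659 in hnRNP-H and 3397 in empty vector. All arrays lay within a log2 range of 0.72. Its difference was -0.03 in A20 and 0.30 in the clones, and the second probe set gave -0.45 and 0.10 (limma adjusted p from 0.447 to 0.974 over the 4 values). The second set was lower in A20 (1686) than on every AxJ array (2184 to 2474), whereas the main one was not.

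Tpi1, the triosephosphate isomerase that interconverts the products of aldolase, read 2609 in A20, 3511 in B5, 4094 in D6, 2329 in hnRNP-H and 1832 in empty vector. The clones stood apart from both controls and from A20. The difference between clones and controls was 0.87 on the log2 scale (SE 0.24, 95% interval 0.32 to 1.43), with an unadjusted p of 0.00623, the smallest among the members, and a limma adjusted p of 0.790. It was 0.94 for B5 minus empty vector and 0.81 for D6 minus hnRNP-H, and from 0.70 to 1.05 over all alternatives run. A20 differed by 0.34 (SE 0.30, adjusted p = 0.616), by -0.10 when set against all 4 AxJ arrays, by 0.16 without empty vector, by 0.51 without hnRNP-H and by 0.11 under the authors' scaling.

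Pgk1, the phosphoglycerate kinase that makes the first ATP of the pathway, read 2110 in A20, 2652 in B5, 4684 in D6, 3119 in hnRNP-H and 3624 in empty vector. A20 was the lowest array and the hnRNP-F clones lay on either side of the controls. The A20 difference was -0.67 (SE 0.37, 95% interval -1.51 to 0.17, limma adjusted p = 0.379). In the clones it was 0.07 (SE 0.30, adjusted p = 0.976), with -0.45 for B5 minus empty vector and 0.59 for D6 minus hnRNP-H.

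Pkm, which encodes the pyruvate kinase of most tissues, was read by 2 probe sets with such a mark, and its splice forms were not told apart. The main one read 4612 in A20, 4923 in B5, 7073 in D6, 6211 in hnRNP-H and 3073 in empty vector. The controls were as far apart as any pair of arrays but D6 and empty vector, so the clones did not separate from them. The second probe set read 2349 in A20, 3202 in B5, 3610 in D6, 3125 in hnRNP-H and 3188 in empty vector, and so was nearly level among the controls and B5. For A20 the main set differed by 0.08 and the second by -0.43 (limma adjusted p = 0.956 and 0.472), and for the clones by 0.43 and 0.11 (adjusted p = 0.820 and 0.941).

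Ldha, the lactate dehydrogenase subunit that turns pyruvate into lactate, read 7073 in A20, 5844 in B5, 6537 in D6, 5251 in hnRNP-H and 3495 in empty vector. A20 was the highest array, the clones came next and empty vector stood well below the rest. The A20 difference was 0.72 (SE 0.32, 95% interval -0.01 to 1.45), with an unadjusted p of 0.0523 and a limma adjusted p of 0.267. It was 0.34 under the authors' scaling, 0.46 against all 4 AxJ arrays, 0.43 with empty vector left out and 1.02 with hnRNP-H left out. In the clones it was 0.53 (SE 0.26, 95% interval -0.07 to 1.13, adjusted p = 0.790), and 0.24 without empty vector. As deposited, Ldha read 5472 in A20, 6643 in B5 and 6299 in D6, so A20 was the highest only after quantile normalisation.

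**Figure D2:**
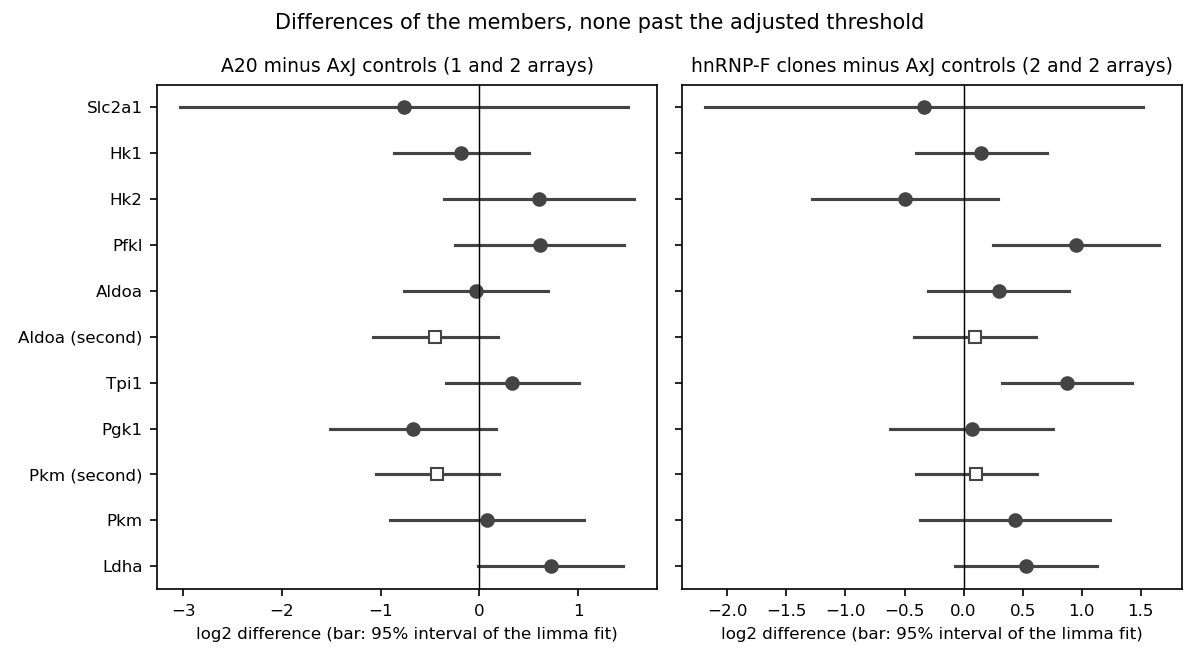
Log2 differences of the 11 kept probe sets of the 9 genes, A20 minus AxJ controls on the left and hnRNP-F clones minus AxJ controls on the right, with 95% intervals of the limma fit as bars and second probe sets as open squares. On the right the intervals of Pfkl and Tpi1 lie above 0 before adjustment over all probe sets, and no adjusted p passed 0.05 in either panel.

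A20 lay above all 4 AxJ lines for Hk2 and Ldha, 2 of 9 genes, where 26.0% of all probe sets did. It lay below all of them for Hk1 and Pgk1, also 2 of 9, where 28.9% of all probe sets did. Both shares were near that of the whole table. Under the authors' scaling A20 was above the AxJ lines for Hk2 alone (24.4% of all probe sets), and below them for Aldoa, Hk1 and Pgk1 (33.4% of all probe sets). Without empty vector it was below the other AxJ lines for 4 genes, where 35.0% of all probe sets were.

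Within AxJ, D6 was the highest AxJ array for 7 of 9 genes, against 20.2% of all genes, and empty vector was the lowest for 6 of 9, against 33.2% of all genes. The 2 single-array contrasts have no replicates and no test. For hnRNP-H minus empty vector the median of the 9 genes was 0.35, against -0.02 over all genes, and 7 of 9 were higher in hnRNP-H. Past a log2 difference of 1 lay 1 gene upward, Pkm at 1.01, and none downward, where 9.97% of all probe sets were that much higher and 8.16% that much lower. The second probe set of Pkm differed by -0.03, and that of Aldoa by -0.15 against 0.45 for its main one. For Pkm and Aldoa the counts of genes in this paragraph therefore rest on the main probe set alone. For D6 minus B5 the median was 0.28, against 0.01 over all genes, and 7 of 9 were higher in D6. Here Slc2a1 at 2.98 was the 1 gene past a difference of 1, where 6.23% of all probe sets were that much higher and 5.74% that much lower. Its B5 value, 13.2, lay under the filter on low values (21.8), so the size of this difference rests on a dim reading. In 6 of 9 genes the level was higher both in hnRNP-H than in empty vector and in D6 than in B5, as in 26.1% of all genes. The Gapdh ratio moved the same way, with 0.866 in hnRNP-H against 0.212 in empty vector and 0.683 in D6 against 0.181 in B5, and its part in these differences was not tested. As deposited, Ldha was lower in D6 (6299) than in B5 (6643), and Hk1 was lower in D6 (4837) than in empty vector (4933). The other main probe sets kept their direction between D6 and B5. The second probe sets of Aldoa (2614 in B5, 2390 in D6) and Pkm (3481 and 3462) turned. The counts of this paragraph therefore hold for quantile normalised values only.

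**Figure D3:**
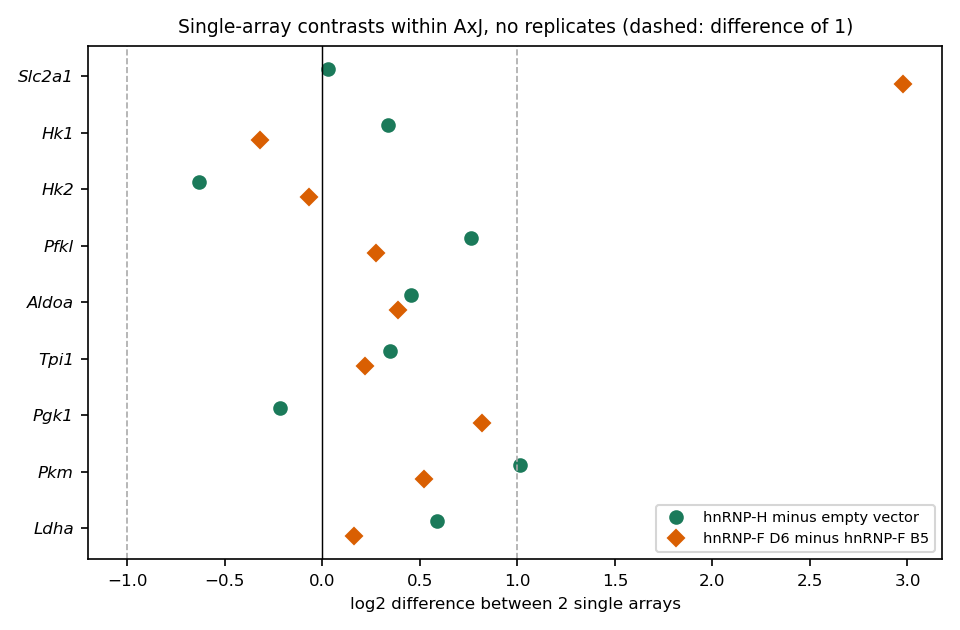
Log2 differences of the 9 genes between single arrays, hnRNP-H minus empty vector (circles) and hnRNP-F clone D6 minus clone B5 (diamonds), with dashed lines at a difference of 1. Most points lie right of 0, with Pkm at 1.01 and Slc2a1 at 2.98 the only ones past 1. Only the probe set that stands for each gene is shown. The second Pkm probe set differed by -0.03 between hnRNP-H and empty vector. Slc2a1 read 13.2 in B5, under the filter on low values (21.8).

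Over the 5 arrays, Pfkl and Tpi1 had the most alike pattern of any pair of members (distance 0.37 between centred log2 profiles, Pearson r = 0.95), and Ldha was nearest to Pfkl (0.54, r = 0.90). Aldoa and Pkm were nearest to each other (0.43, r = 0.96). Slc2a1 and Hk2 lay farthest from any other member, with Pgk1 nearest to Slc2a1 at 1.59 (r = 0.80) and Hk1 nearest to Hk2 at 1.38 (r = -0.80). Of 36 pairs of members 24 had an r above 0, with a median of 0.31. The mean profile of the 9 genes was 0.43 in D6, 0.02 in hnRNP-H, -0.05 in A20, -0.13 in B5 and -0.27 in empty vector, as the mean of log2 values centred per gene. Among 3937 other genes with a range of at least 1, those nearest to this mean profile were Rbpj (0.29), Kcnn4 (0.30), Atxn10 (0.37), Sec14l1 (0.41) and Bcar1 (0.41). These distances rest on 5 arrays that share their normalisation.

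Other enzymes and transporters of the same route were read from lists of known genes. Against 2.99% of all probe sets that fell in A20 and 2.90% that rose, 1 of 8 other glycolytic enzymes measured fell and none rose. This was Eno3, the enolase known from muscle, at -1.51 (SE 0.33, limma adjusted p = 0.0331), with 153 in A20 against 457 in hnRNP-H and 440 in empty vector. Its call was lost under 7 of 12 alternatives, in each AxJ array's absence among them (adjusted p from 0.0521 to 0.104). None of 6 other glucose and lactate transporters passed. Bsg, basigin, the chaperone of lactate transporters, differed by -1.23 (SE 0.37, adjusted p = 0.104), with 984 in A20 against 3088 in hnRNP-H and 1734 in empty vector. It passed without empty vector (adjusted p = 0.0355) and with arrays paired by Gapdh ratio (0.0314). Slc2a5, a fructose transporter, differed by -0.995 (adjusted p = 0.655) on a dim probe set. The medians of these lists in A20 were -0.33 and -0.25, against -0.03 over all genes.

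The pentose phosphate pathway, which branches off glycolysis at glucose 6-phosphate and makes NADPH and ribose, was higher in A20 for part of its genes. Of 6 measured, 3 rose and none fell, against 2.90% and 2.99% of all probe sets, with a median of 1.32. Tkt, transketolase, read 2322 in A20, 754 in B5, 832 in D6, 470 in hnRNP-H and 240 in empty vector, and rose by 2.76 in A20 (SE 0.41, limma adjusted p = 0.0072). Rpia, ribose 5-phosphate isomerase, rose by 1.60 (SE 0.37, adjusted p = 0.042), with 462 in A20 against 130 in hnRNP-H and 168 in empty vector. Taldo1, transaldolase, rose by 1.39 (SE 0.32, adjusted p = 0.042), with 658 in A20 against 261 in hnRNP-H and 235 in empty vector. All 3 act in the non-oxidative arm, whose products re-enter glycolysis. A20 lay above all 4 AxJ lines for 5 of the 6 genes, against the 26.0% given above. Tkt lost its call in 2 of 12 alternatives, Rpia in 6 and Taldo1 in 5, each without the intensity trend (adjusted p = 0.0811, 0.144 and 0.157). Rpia lost it without each of the AxJ arrays in turn (adjusted p from 0.0560 to 0.121), and Taldo1 when empty vector (0.0749), B5 (0.141) or D6 (0.137) was left out.

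In the hnRNP-F clones Tkt and Pgls, the lactonase of the oxidative arm, had the largest statistics of this list. Tkt differed by 1.22 (SE 0.33) and Pgls by 0.71 (SE 0.33), neither past the threshold (limma adjusted p = 0.790). Both clones lay above both controls for 4 of the 6 genes, against 18.2% of all probe sets. Empty vector was the lowest array for both genes.

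At the exit of the pathway, 1 of 9 regulators and pyruvate entry genes fell in A20 and none rose, against 2.99% and 2.90% of all probe sets. Pdha1, a subunit of pyruvate dehydrogenase, which feeds pyruvate to the citric acid cycle, fell by 1.48 (SE 0.31, limma adjusted p = 0.0286), with 521 in A20 against 1523 in hnRNP-H and 1415 in empty vector. It lost its call in 6 of 12 alternatives, among them when empty vector (adjusted p = 0.0565), B5 (0.0870) or D6 (0.0829) was left out. Of 17 citric acid cycle genes 1 rose, Ogdh by 1.70 (SE 0.36, adjusted p = 0.0309), and none fell, with a median of 0.03. Over all probe sets 2.90% rose and 2.99% fell. The Ogdh call was lost in 5 of 12 alternatives, among them when empty vector (adjusted p = 0.0631), B5 (0.101) or D6 (0.0965) was left out. None of 9 genes of glycogen and gluconeogenesis passed. Gbe1, which branches glycogen, had the largest statistic together with Pygb, a glycogen phosphorylase, at -1.78 (SE 0.82) and 1.09 (SE 0.46). The Gbe1 probe set was dim, at 0.39 in A20 and at most 23.4 on the AxJ arrays. In the hnRNP-F clones none of the genes of these lists passed. The largest statistics there were those of Bpgm (1.04) and Eno3 (0.41) among glycolytic enzymes, Bsg (0.38) and Slc2a4 (-0.57) among transporters, Pfkfb3 (-0.43) and Dld (-0.48) at pyruvate entry, Sdhc (0.79) and Suclg1 (0.49) in the citric acid cycle, and Pgm1 (0.62) and Gys1 (0.50) in glycogen metabolism.

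Of 17 regulators of glycolytic genes 1 fell in A20 and none rose, against 2.99% and 2.90% of all probe sets. Myc fell by 3.01 (SE 0.29, limma adjusted p = 0.00105), with 186 in A20, 1150 in B5, 1058 in D6, 1629 in hnRNP-H and 1477 in empty vector. A20 stood far below all AxJ lines, and the call held in all 12 alternatives. Ldha, whose promoter above holds the Myc E-box at 2 places, was not called in A20, where its difference ran from 0.34 to 1.02 over the alternatives. Binding of Myc was not measured, and a link between the levels of Myc and Ldha was not tested. Hif1a, the oxygen-sensitive factor, differed by 0.73 in A20 (SE 0.37, adjusted p = 0.337) and read 1129 in A20, 452 in B5, 414 in D6, 525 in hnRNP-H and 879 in empty vector. In the clones Myc differed by -0.49 and Hif1a by -0.64 (adjusted p = 0.790 for both). The second Hif1a probe set differed by 0.79 in A20 and by -0.84 in the clones (limma adjusted p = 0.282 and 0.790). Both Hif1a probe sets carry the maker's mark for sets that can also detect related sequences.

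Genes known to respond to low oxygen did not all move one way in A20. Of 11 measured, 2 rose and 2 fell, against 2.90% and 2.99% of all probe sets. Their median was -1.01, with 8 below 0 and 3 above. A20 lay below all 4 AxJ lines for 7 of the 11 (28.9% of all probe sets) and above them for 2 (26.0%). Adm, adrenomedullin, rose by 3.90 (SE 0.71, limma adjusted p = 0.0179), with 214 in A20 and at most 14.8 on the AxJ arrays, and Hmox1, haem oxygenase, rose by 3.12 (SE 0.62, adjusted p = 0.0238). Ddit4, an inhibitor of mTOR signalling, fell by 2.30 (SE 0.45, adjusted p = 0.023) and Tfrc, the transferrin receptor, by 1.70 (SE 0.34, adjusted p = 0.0261), with -1.05 and no call for its second probe set. Without empty vector the calls of Hmox1 (adjusted p = 0.108), Ddit4 (0.0781) and Tfrc (0.0651) were lost, and that of Tfrc also without B5 (0.0826) or D6 (0.0763). Over all 12 alternatives the calls of Hmox1 and Ddit4 were each lost in 3 and that of Tfrc in 6, while that of Adm held in all. In the clones none of the 11 passed, with P4ha1 at 0.72 and Bnip3 at 0.39.

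**Figure D4:**
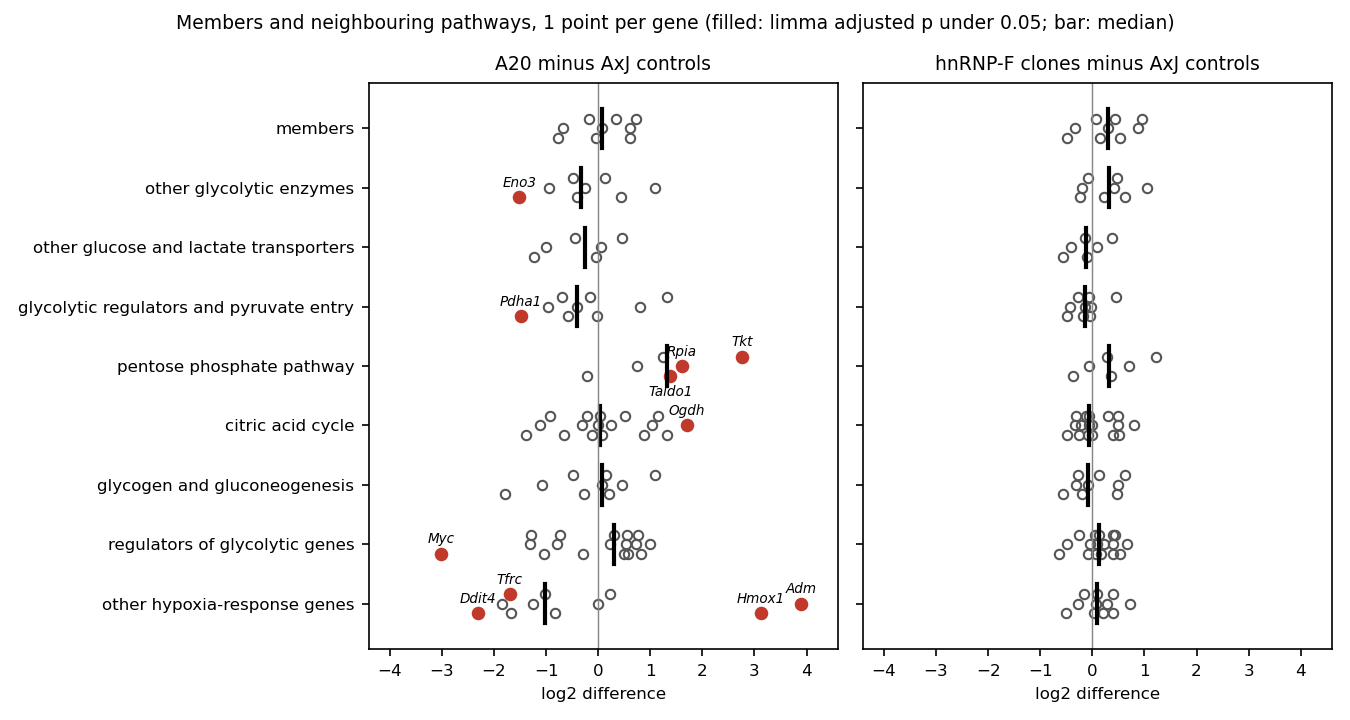
Log2 differences of the members and of 8 lists of neighbouring genes, 1 point per gene, A20 minus AxJ controls on the left and hnRNP-F clones minus AxJ controls on the right. Filled points passed a limma adjusted p of 0.05 and black bars are list medians; the members have no filled point, while Tkt, Rpia and Taldo1 rose in A20.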

How the data were processed

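Polyadenylated RNA of 5 cultures was labelled with biotin, per the labels' protocols, and read on 1 array each. The authors deposited 1 linear intensity per probe set and array. Per the deposited values, these had been scaled to a trimmed mean of about 150 on each array. The software and the background step are not stated in the labels. The number of arrays limits the precision.

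Of 12488 probe sets, 66 controls were left out and the rest quantile normalised. Printed levels are these normalised intensities unless called deposited, and levels of different probe sets are not comparable. Symbols came from GEO's platform annotation, updated through gene identifiers (10855 probe sets with 1 symbol, 396 with several, 1237 with none). Probe sets with several symbols stood for no gene. The pseudocount, 6.55, was the 20th percentile of all values, and 9107 probe sets rose above 21.8, the 40th percentile, on at least 1 array and were kept.

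limma 3.58.1 in R 4.3.3 (lmFit, eBayes with trend) was fitted over all arrays with coefficients for the hnRNP-F clones, the AxJ controls and A20, leaving 2 residual degrees of freedom beside a prior of 6.46. The spread between the controls counts as error, and A20 is assumed to vary like AxJ. All p-values are two-sided and were adjusted by Benjamini-Hochberg over these 9107, with a threshold of 0.05. The labels do not speak of repeat cultures, and the p-values therefore reflect the spread of these arrays alone, which may be technical. Single-array contrasts were described past a log2 difference of 1. The fit was run as a check on data simulated from its own estimates of spread. No statement on its power to find differences as small as those of the members is drawn from that. Members and gene lists were chosen with earlier results of these data known. All members were named, and from each list of pathway genes up to 4 called genes by the size of the moderated statistic, otherwise the 2 with the largest. From the marker lists only called genes were named.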

Additional observations from a re-analysis of the deposited data

How the results depend on the processing

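No analysis paired by the design was possible because the labels give no replicate numbers that the groups share. A block on pairs of arrays with like Gapdh ratios, which are a measured likeness and not a pairing of the design, gave 790 A20 calls and 1 call in the clones, and called no glycolysis gene. No glycolysis gene passed 0.05 in either comparison under any alternative: of 253 values of single member probe sets, 242 kept their direction and side of the threshold and 11 turned sign, with a smallest adjusted p of 0.0756 (Ldha in A20). In A20 the sign turned for Pkm under the authors' scaling (-0.17) and for Pkm (-0.14) and Tpi1 (-0.10) against all 4 AxJ arrays as 1 group. With 1 array left out, Pkm in A20 ranged from -0.43 to 0.58, and Aldoa from -0.26 to 0.19. In the clones the ranges that crossed 0 were -0.074 to 0.94 for Pkm, -0.019 to 0.32 for Hk1, -0.34 to 0.48 for Pgk1, -1.82 to 1.15 for Slc2a1, -0.037 to 0.79 for Bsg, -1.27 to 0.13 for Slc2a4 and -0.14 to 0.92 for Bnip3. The cause of these turns was not tested. The A20 calls over all probe sets numbered 145 when no trend on intensity was fitted and 311 when dim probe sets were kept, against 536, and ranged from 245 (without B5) to 667 (without hnRNP-H) with 1 AxJ array left out. The calls in the clones numbered 0 under both of those settings, against 1, and 0 to 3 with 1 array left out. The members' median with 1 array left out ranged from -0.26 to 0.29 in A20 and from 0.070 to 0.61 in the clones. Counts of members outside the other group were recomputed after seeing the data: A20 lay above the AxJ arrays for 1 member under the authors' scaling (24.4% of all probe sets) and 1 under median scaling (32.95%), against 2. With 1 array left out these counts were 3 to 7 for clones above controls (31.0% to 37.9% of all probe sets), 1 to 3 for clones below them (32.3% to 39.0%), 2 for A20 above AxJ (28.3% to 31.9%) and 2 to 4 for A20 below (31.8% to 35.0%). Values near the pseudocount limit the size of any difference of dim probe sets such as Slc2a1.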

Other observations

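A probe set listed for Gapdh together with related symbols, and therefore not used for any gene, read 7026 in A20, 3589 in B5, 4165 in D6, 3262 in hnRNP-H and 2779 in empty vector. A second one, listed for Gapdh and a pseudogene, read 84.4 in A20 and 49.5 to 112 on the AxJ arrays. The maker's control probe set at the 3' end of Gapdh read, as deposited, 8262 in A20, 8221 in B5, 8091 in D6, 7404 in hnRNP-H and 7060 in empty vector. Bpgm, bisphosphoglycerate mutase, was not called in either comparison (limma adjusted p = 0.327 in A20 and 0.790 in the clones). It read 78.4 in A20, 90.8 in B5, 62.0 in D6, 49.4 in hnRNP-H and 21.6 in empty vector.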
